A study of Mus musculus with 9 samples.

Results

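The 10 genes described here belong to the WNT pathway and were followed through 9 poly(A) RNA libraries of a mouse mammary adenocarcinoma cell line: the secreted antagonists Dkk1, Dkk2, Dkk3, Sfrp1 and Sfrp2, the ligands Wnt5a and Wnt9a, the target gene and feedback inhibitor Axin2, and the nuclear factors Lef1 and Tcf7l2. These 10 genes were taken by name from the 55487 genes of the count table. The line is D2.0R, also written D2.OR. All libraries share one culture and sorting scheme: the cells were stained with the division-diluted dye CellTrace Far Red, grown for a week in DMEM with 2% FBS, and sorted into dye-retaining cells, which the submitters call quiescent, and dye-poor cells, which they call proliferative. The labels list CTFR-positive, CTFR-negative and bulk samples, 3 of each, without tying a library to any of these kinds, and say nothing on whether the 9 came from separate cultures. Libraries are therefore called by the running number in their titles. Values are set out by consecutive numbers (1 to 3, 4 to 6, 7 to 9) and by position within those threes (1, 4, 7; 2, 5, 8; 3, 6, 9). These sets are positions in the numbering only and are not read as conditions.

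WNT ligands are secreted lipid-modified proteins that bind Frizzled receptors and LRP5 or LRP6. In the canonical branch this halts the breakdown of beta-catenin, which then joins TCF/LEF proteins at target genes, whereas Wnt5a is best known as a non-canonical ligand. DKK1 and DKK2 are known as antagonists of the LRP co-receptors, and SFRP proteins bind WNT ligands through a Frizzled-like domain. AXIN2 is a beta-catenin target that promotes beta-catenin breakdown. In the mammary gland the pathway is known for its part in stem and progenitor cells, and Wnt genes were first found as sites of mouse mammary tumour virus insertion.

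Totals of estimated counts lay between 18732737 (library 9) and 41243036 (library 7). Levels below are CPM, the count divided by the TMM-scaled total and expressed on the usual parts-per-1000000 scale, so that 1 CPM rested on 18.7 to 39.8 counts. Intervals in brackets are exact 95% intervals for counting error alone. Of the 10 mammary epithelial markers checked, 4 reached a mean of 1 CPM: Krt8, Krt18, Cdh1 and Esr1. Epcam, an epithelial adhesion gene, stayed at or below 0.224 CPM, while the collagen gene Col1a1, which is also a fibroblast marker, lay between 1086 and 4316 CPM. Leukocyte markers summed to between 2.85 and 11.2 CPM, nearly all of it Cd68, and the NK cell genes Ncr1, Klrd1, Gzma and Nkg7 were at 0 counts.

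The 10 members fell into 5 that were measured at a mean of at least 1 CPM (Sfrp2, Wnt5a, Wnt9a, Axin2 and Tcf7l2) and 5 below it (Dkk1, Dkk2, Dkk3, Sfrp1 and Lef1). A gene was called variable when a chi-square test of its 9 counts gave a Benjamini-Hochberg adjusted p under 0.05 and its highest and lowest libraries differed by at least 1 on the log2 CPM scale, that is 2-fold. Of the 5 measured members 2, Sfrp2 and Wnt5a, were called. Among all 12328 genes tested, 27.7% were called. All 5 varied beyond counting noise, as did 96.0% of the genes tested. The 5 members had a median log2 range of 0.98, all genes tested one of 0.67. Leaving out library 3 left Sfrp2 as the 1 member called, since the Wnt5a range then fell to 0.98.

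**Figure D1:**
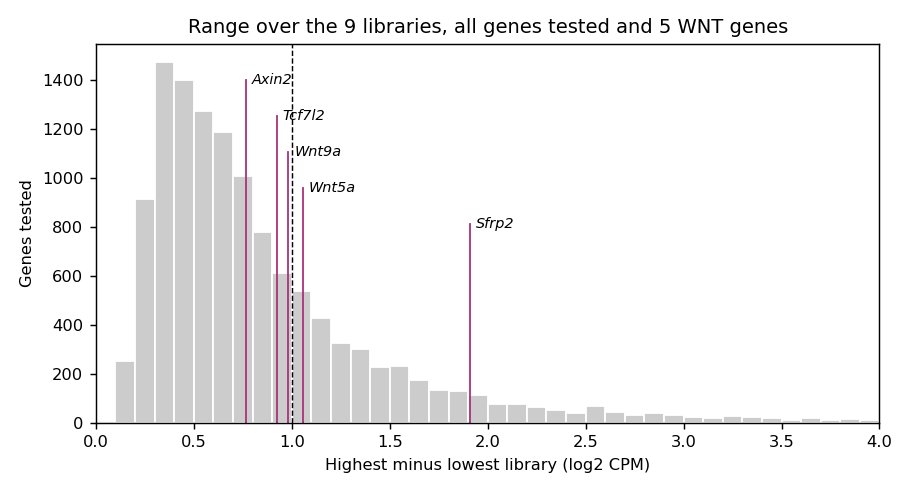
Histogram of the difference between the highest and the lowest library (log2 CPM, x axis, drawn up to 4) over the 12328 genes tested, with red lines at the 5 measured members and a dashed line at 1, the 2-fold mark. Sfrp2 (1.91) and Wnt5a (1.06) lie past the mark, and Wnt9a (0.98), Tcf7l2 (0.92) and Axin2 (0.77) before it.

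Among the 5 antagonists followed here, Sfrp2 was the one abundant gene. Sfrp2 (ENSMUSG00000027996, chr3:83766321-83774316 on GRCm38, plus strand, protein-coding) encodes a secreted Frizzled-related protein that binds WNT ligands. It stood at 23.5, 53.2 and 27.0 CPM in libraries 1, 2 and 3, at 38.5, 74.5 and 35.1 CPM in libraries 4, 5 and 6, and at 42.0, 88.6 and 31.8 CPM in libraries 7, 8 and 9. Libraries 2, 5 and 8 were the 3 highest, at 53.2 to 88.6 CPM, and did not overlap with the other 6, at 23.5 to 42.0 CPM. It follows that the middle library was the highest within each set of 3 consecutive numbers. The highest and lowest libraries differed 3.77-fold (3.47 to 4.10), and the second highest and second lowest 2.76-fold. Its range was wider than that of 92.6% of the genes tested. The chi-square statistic was 2718 on 8 degrees of freedom, with an adjusted p too small for the software to write. In a mixed population, a larger share of cells that express a gene and more of its RNA per cell cannot be told apart, here and for the other members.

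Dkk3, which encodes a divergent Dickkopf family member, was low. Its counts were 14, 56, 31, 25, 22, 33, 18, 26 and 21 in libraries 1 to 9, or 0.452 to 1.60 CPM. Library 2 was the highest and library 7 the lowest, with a 3.55-fold difference (2.05 to 6.41). By position, libraries 1, 4 and 7 (0.452 to 0.821 CPM) were all below libraries 3, 6 and 9 (0.875 to 1.12 CPM). Libraries 2, 5 and 8 (0.727 to 1.60 CPM) overlapped with both. The counting intervals of library 4 (0.532 to 1.21 CPM) and library 3 (0.595 to 1.24 CPM) overlapped. The consecutive sets overlapped. Sfrp1, another Frizzled-related antagonist, had 3, 10, 8, 7, 6, 4, 6, 29 and 11 counts in libraries 1 to 9. Library 8 (0.811 CPM, 0.543 to 1.16) and library 9 (0.587 CPM, 0.293 to 1.05) were the highest, and the 7.86-fold difference between libraries 8 and 1 carried an interval of 2.44 to 40.3. Both genes passed the call once the filter on the mean was dropped (adjusted p 1.10e-05 for Dkk3 and 9.74e-08 for Sfrp1, chi-square test with Benjamini-Hochberg adjustment), where 32.4% of all genes were called.

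Dkk1 and Dkk2, which encode antagonists of the LRP co-receptors, were not detectable above the floor of 3 counts. Dkk1 (ENSMUSG00000024868, chromosome 19 at 30545863 to 30549665) had 0 counts in all 9 libraries. Read as that floor of 3 counts, a count of 0 allows up to 0.0754 CPM in library 7, the deepest, 0.160 CPM in library 9, the shallowest, and 0.0105 CPM over the 9 libraries together. The exact 95% intervals reach 0.0927 CPM in library 7 and 0.197 CPM in library 9. Dkk2 had 1 count in library 6, 1 in library 8 and 0 in the others. Of the antagonists outside the 10 members, 4 of 14 listed genes reached 1 CPM on average. Igfbp4, a binding protein of insulin-like growth factors that is also listed as a WNT antagonist, lay between 246 and 695 CPM, 2.83-fold, and was above the other 6 in libraries 2, 5 and 8. Trabd2b, which encodes a protease that cleaves WNT ligands, had the widest range of the measured antagonists, 13.1 CPM (library 9) to 68.6 CPM (library 2). Per kilobase of annotated exon, the median level of Igfbp4 was 115 CPM per kilobase against 17.9 for Sfrp2, and Igfbp4 was the higher in 9 of 9 libraries.

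**Figure D2:**
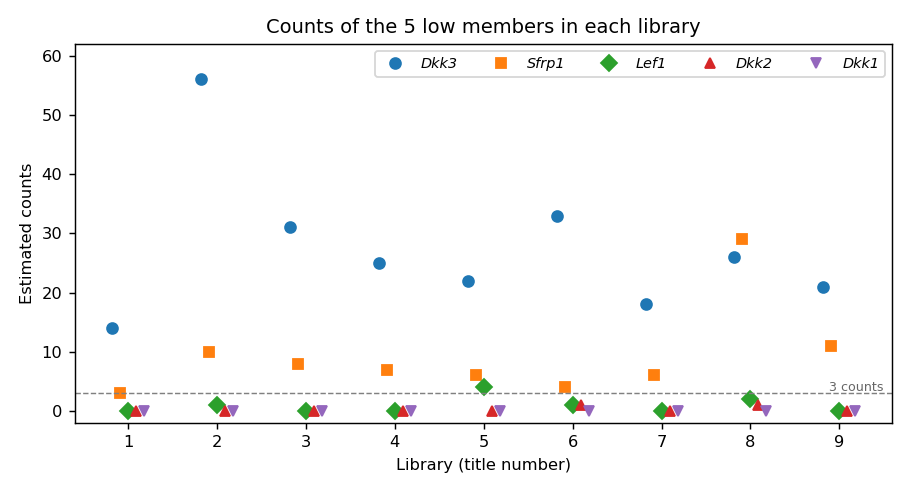
Estimated counts (y axis) of the 5 low members in each library (x axis, title number), with a dashed line at the floor of 3 counts. Dkk3 lies between 14 and 56 counts, Sfrp1 between 3 and 29 with its highest value in library 8, and Lef1, Dkk2 and Dkk1 at or below 4.

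The 2 ligands were arranged differently. Wnt5a (ENSMUSG00000021994, chr14:28504750-28527448 on GRCm38, plus strand, protein-coding) stood at 14.0, 12.1 and 11.5 CPM in libraries 1, 2 and 3, at 16.4, 17.2 and 18.7 CPM in libraries 4, 5 and 6, and at 23.98, 20.95 and 23.4 CPM in libraries 7, 8 and 9. Libraries 1 to 3 (11.5 to 14.0 CPM) were all below libraries 4 to 6 (16.4 to 18.7 CPM), which were all below libraries 7 to 9 (20.95 to 23.98 CPM). Of all genes tested, 1.39% showed that order of the 3 consecutive sets. The counting intervals of libraries 1 (12.6 to 15.4 CPM) and 4 (14.96 to 17.9 CPM) overlapped. Those of libraries 6 (17.3 to 20.3 CPM) and 8 (19.5 to 22.5 CPM) did too. By position within the threes, the Wnt5a sets overlapped. The highest and lowest libraries differed 2.09-fold (1.86 to 2.35; adjusted p 9.21e-63, chi-square test with Benjamini-Hochberg adjustment), and the second highest and second lowest 1.93-fold, under the 2-fold mark. The mitochondrial share of counts was 1.31% to 1.91% in libraries 1 to 3, 1.61% to 2.05% in libraries 4 to 6 and 1.37% to 1.93% in libraries 7 to 9, so the sets overlapped in it. Endothelial markers summed to 8.91 to 12.1 CPM, 12.3 to 15.3 CPM and 12.9 to 15.5 CPM in the same sets. The sum came mostly from Egfl7 and Vwf, with Cdh5 at 0. It did not overlap between libraries 1 to 3 and the other 6, but each of these 2 genes did. Egfl7 lay at 6.71 to 10.7 CPM against 9.56 to 11.7 CPM, and Vwf at 1.12 to 2.48 CPM against 1.20 to 4.32 CPM. The 10 cell division genes checked, Mki67 among them, summed to 38.4, 216 and 31.6 CPM in libraries 1, 2 and 3, to 57.5, 347 and 43.0 CPM in libraries 4, 5 and 6, and to 127, 493 and 103 CPM in libraries 7, 8 and 9. The consecutive sets overlapped in that sum, but at each position within the threes it was higher with each later set, as the Wnt5a level was. The part of these measures in the Wnt5a values was not tested.

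Wnt9a, a ligand of the canonical branch in skeletal and blood development, stood at 3.03, 4.76 and 3.19 CPM in libraries 1, 2 and 3, at 3.25, 4.26 and 3.71 CPM in libraries 4, 5 and 6, and at 3.82, 6.04 and 3.20 CPM in libraries 7, 8 and 9. Libraries 2, 5 and 8 (4.26 to 6.04 CPM) lay above the other 6 (3.03 to 3.82 CPM), although the counting interval of library 5 (3.54 to 5.08 CPM) included 3.82. Its range was 2.00-fold (1.55 to 2.59), or 0.98 on the log2 scale. It was called with libraries scaled by their totals alone (1.00). Without library 8 the range was 0.65. The gene (ENSMUSG00000000126) lies on chromosome 11 at 59306928 to 59333552.

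In these cells 6 of 19 ligand genes reached a mean of 1 CPM, and 2 had 0 counts in every library. Wnt5a had the highest median level per kilobase of exon, 2.19 CPM per kilobase, followed by Wnt7b at 1.75 and Wnt9a at 1.11. Wnt5a was above Wnt7b in 8 of 9 libraries and Wnt7b above Wnt9a in 6 of 9, and the ranges of both pairs overlapped. As a share of the summed ligand level per kilobase, Wnt5a ran from 16.4% in library 2 to 43.5% in library 9. The 4 measured ligands that are not members were all called, where 27.7% of all genes tested were. Wnt5b had the widest range, 0.427 CPM (library 9) to 7.94 CPM (library 2), and Wnt11 ran from 0.694 to 3.32 CPM in the same libraries. Wnt7b, named after its values were seen, had its lowest value in library 2 (4.35 CPM) and its highest in library 7 (13.3 CPM). For ligand export, neither Porcn, the acyltransferase that lipidates WNT proteins (17.7 to 33.8 CPM), nor Wls, their carrier to the cell surface (323 to 425 CPM), was called.

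Axin2 was abundant and varied by less than 2-fold. Axin2 (ENSMUSG00000000142, chr11:108920349-108950783 on GRCm38, plus strand, protein-coding) stood at 58.7, 99.95 and 90.8 CPM in libraries 1, 2 and 3, at 68.7, 91.4 and 95.02 CPM in libraries 4, 5 and 6, and at 68.2, 72.8 and 75.6 CPM in libraries 7, 8 and 9. Libraries 1, 4 and 7 (58.7 to 68.7 CPM) were all below the other 6 (72.8 to 99.95 CPM), an arrangement that 4.16% of the genes tested shared. The counting intervals of library 4 (65.8 to 71.7 CPM) and library 8 (70.0 to 75.6 CPM) overlapped. The 1.70-fold range (1.61 to 1.81) stayed under 2-fold, although counting error was small at 1417 to 3489 counts (adjusted p 7.78e-139, chi-square test with Benjamini-Hochberg adjustment). Unlike the Sfrp2 values, those of Axin2 in libraries 2, 5 and 8 (72.8 to 99.95 CPM) overlapped with those of the other 6.

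Of the TCF/LEF factors that carry beta-catenin to DNA, Tcf7l2 was measured and Lef1 was not. Tcf7l2 (ENSMUSG00000024985, chr19:55741820-55933654 on GRCm38, plus strand, protein-coding) stood at 9.90, 14.6 and 11.5 CPM in libraries 1, 2 and 3, at 8.25, 14.6 and 10.03 CPM in libraries 4, 5 and 6, and at 8.02, 13.5 and 7.69 CPM in libraries 7, 8 and 9. Libraries 2, 5 and 8 (13.5 to 14.6 CPM) lay close together and above the other 6 (7.69 to 11.5 CPM). The counting intervals of library 8 (12.3 to 14.7 CPM) and library 3 (10.4 to 12.6 CPM) overlapped. The range was 1.90-fold (1.58 to 2.31; adjusted p 5.49e-33, chi-square test with Benjamini-Hochberg adjustment) and was not called. Lef1 had 4 counts in library 5, 2 in library 8, 1 each in libraries 2 and 6 and 0 in the rest, so at most 0.140 CPM. Within this family of 4 genes, Tcf7l1, the member best known as a repressor, held 53.8% to 81.3% of the summed level per kilobase, Tcf7 14.9% to 40.7% and Tcf7l2 3.58% to 6.15%. Tcf7 was named after its values were seen. Tcf7l1 was called variable, spanning 43.9 CPM (library 1) to 140 CPM (library 5), with libraries 2, 5 and 8 above the other 6.

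Levels per kilobase of annotated exon set genes side by side only roughly. The length takes in the exons of all annotated transcripts, whichever of them the cells made. A gene with annotated exons that are unused here is thus set too low. With that limit, the members were ordered as follows. Sfrp2 had a median of 17.9 CPM per kilobase (10.9 to 41.2 over the libraries) and Axin2 13.7 (10.7 to 18.2). These ranges overlapped, and Sfrp2 was the higher in 7 of 9 libraries. Wnt5a followed at 2.19 (1.47 to 3.07), below Axin2 in every library. Tcf7l2 at 1.14 and Wnt9a at 1.11 could not be ordered, since Tcf7l2 was the higher in 5 of 9 libraries. Dkk3 had 0.245 and Sfrp1 0.0517 CPM per kilobase, and Lef1, Dkk2 and Dkk1 had medians of 0.

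**Figure D3:**
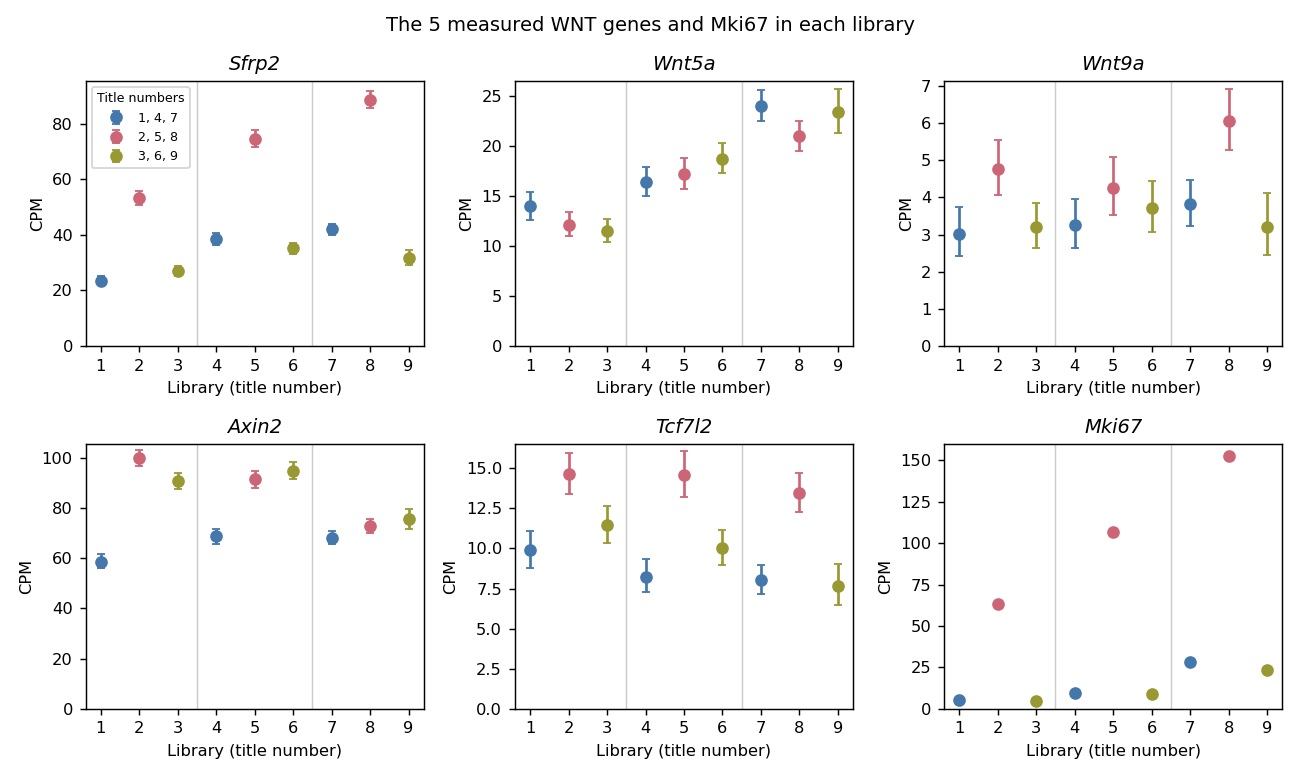
CPM (y axes, from 0) of the 5 measured members and of the proliferation gene Mki67 in each library (x axes, title number); bars on the members are exact 95% Poisson intervals, colours mark the position within the threes and grey lines part the consecutive threes. Sfrp2, Wnt9a and Tcf7l2 are highest in libraries 2, 5 and 8, Wnt5a steps up from 1 to 3 through 4 to 6 to 7 to 9, and Axin2 is lowest in 1, 4 and 7.

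Set out by position within the threes, 3 of the 5 measured members (Sfrp2, Wnt9a and Tcf7l2) had libraries 2, 5 and 8 all above the other 6, where 21.3% of all genes tested did. None of the 5 had them all below, where 18.3% of all genes did. Other measures were parted in the same way. Mki67, which encodes the proliferation antigen Ki-67, lay at 63.4 to 153 CPM in libraries 2, 5 and 8 and at 4.97 to 28.6 CPM in the other 6. The 10 division genes summed to 216 to 493 CPM against 31.6 to 127 CPM, and 9 of the 10 were above the other 6 in libraries 2, 5 and 8. The 9 fibroblast markers summed to 6256 to 7959 CPM against 2658 to 4194 CPM, carried by Col1a1, Col3a1, Pdgfra and Pdgfrb, of which Pdgfra overlapped between these sets, while Lum and Dpt had a median of 0. The 10 mammary epithelial markers summed to 430 to 808 CPM against 232 to 386 CPM, but of the 4 measured ones only Krt8 was parted (310 to 677 CPM against 146 to 288 CPM). Krt18, Cdh1 and Esr1 overlapped between these sets, and Krt18 was highest in library 1. The leukocyte marker sum was lower, at 2.85 to 4.70 CPM against 6.51 to 11.2 CPM, and nearly all of it was the single gene Cd68. The TMM factors were 1.02 to 1.03 in libraries 2, 5 and 8 and 0.965 to 1.00 in the other 6, and the 3 members kept their position with totals alone. Library totals overlapped. What part these measures had in the values of Sfrp2, Wnt9a and Tcf7l2 was not tested.

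The promoter windows of these 3 genes, and of Axin2 as the textbook target, are shown because the genes shared or did not share an order over the libraries. RefSeq windows on GRCm38.p6, which matched 7 of the 10 members, run from 250 bases before the start of transcription to 50 after it, on the strand of the gene. They are chr3:83766071-83766370 for Sfrp2, chr11:59306680-59306979 for Wnt9a, chr19:55741560-55741859 for Tcf7l2 (the first of its 2 starts in the table) and chr11:108920099-108920398 for Axin2, all on the plus strand. No transcript was found to hold the first transcribed bases of the Tcf7l2 window. For each of the other 3 windows, 1 or 2 transcripts did. Capitals mark exact matches, on either strand, to 7 strings: the TCF/LEF core as CTTTGAT or in its other form CTTTGAA, the E2F site as TTTGGCGC or in its other form TTTCGCGC, the box CCAAT, the string TATAA and the GC box written GGGCGG.
Sfrp2: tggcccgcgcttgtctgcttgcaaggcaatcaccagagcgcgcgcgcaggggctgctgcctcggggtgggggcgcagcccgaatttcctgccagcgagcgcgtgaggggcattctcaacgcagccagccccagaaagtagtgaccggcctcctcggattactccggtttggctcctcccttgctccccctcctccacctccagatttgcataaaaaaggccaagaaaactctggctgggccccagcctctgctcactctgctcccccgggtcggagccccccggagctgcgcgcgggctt
Wnt9a: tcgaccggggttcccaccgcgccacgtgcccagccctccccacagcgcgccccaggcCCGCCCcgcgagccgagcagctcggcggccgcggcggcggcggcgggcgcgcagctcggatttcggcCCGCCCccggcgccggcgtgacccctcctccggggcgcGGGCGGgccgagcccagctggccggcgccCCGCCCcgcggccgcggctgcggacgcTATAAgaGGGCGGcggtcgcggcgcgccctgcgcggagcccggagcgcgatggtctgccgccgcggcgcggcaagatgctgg
Tcf7l2: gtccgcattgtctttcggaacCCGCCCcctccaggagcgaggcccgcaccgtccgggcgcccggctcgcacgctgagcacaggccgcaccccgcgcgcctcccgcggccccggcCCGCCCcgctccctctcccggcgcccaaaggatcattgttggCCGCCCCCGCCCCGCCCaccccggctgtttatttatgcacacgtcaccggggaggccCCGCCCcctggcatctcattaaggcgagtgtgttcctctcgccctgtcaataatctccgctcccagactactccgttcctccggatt
Axin2: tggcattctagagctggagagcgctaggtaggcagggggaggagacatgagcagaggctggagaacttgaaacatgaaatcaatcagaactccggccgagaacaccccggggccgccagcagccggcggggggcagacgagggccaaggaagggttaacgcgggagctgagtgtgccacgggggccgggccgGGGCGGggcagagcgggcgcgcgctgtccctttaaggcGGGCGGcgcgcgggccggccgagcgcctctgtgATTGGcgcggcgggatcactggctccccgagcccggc
None of the 4 windows held either TCF/LEF string, which 3.73% (CTTTGAT) and 5.14% (CTTTGAA) of the 32851 windows in the table do, or either E2F string (0.514% and 0.323%). That says only that these letters are not in these windows. Sfrp2 matched none of the 7 strings. Wnt9a held the GC box 5 times and TATAA 1 time, 32 bases before the start. Tcf7l2 held the GC box 6 times, 2 of them sharing a base, and Axin2 held it 2 times, with CCAAT 1 time on the opposite strand, 13 bases after the start. Over all windows 35.7% held GGGCGG, 24.9% TATAA and 37.4% CCAAT. The 4 windows were rich in G and C, at 66.0% for Sfrp2, 83.3% for Wnt9a, 70.0% for Tcf7l2 and 70.0% for Axin2, against a median of 52.7%. Among the members without measurable RNA, the Dkk1 window held CTTTGAA 117 bases before the start.

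Genes with the most similar profile were sought for the 2 called members among 9860 genes with a mean of at least 5 CPM, by the root mean square difference of log2 CPM, each centred on its own median, over the 9 libraries. Nearest to Sfrp2 were Arhgap28 (0.10 on the log2 scale), Cdca2, a gene of mitotic chromatin (0.11), and Sh3bp5, an SH3-binding protein gene (0.14). Library 8 was the highest and library 1 the lowest for all 3, as for Sfrp2. Cdca2 ran from 6.36 to 25.5 CPM. Nearest to Wnt5a were Ptgs1, the gene of cyclooxygenase 1 (0.14), Pfkp, a phosphofructokinase gene (0.14), and Faap24, a Fanconi anaemia pathway gene (0.15). All 3 were highest in library 9, whereas Wnt5a was highest in library 7. These likenesses rest on 9 libraries that share their scaling and describe them only.

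The rest of the pathway was taken from role lists of 95 further genes, of which 62 reached a mean of 1 CPM. Of these 25 (40.3%) were called variable, against 27.7% of all genes tested, with a median log2 range of 0.82 against 0.67. By role, 5 of 13 receptor genes were called. Fzd8, a Frizzled receptor gene, spanned 1.07 CPM (library 9) to 10.3 CPM (library 1). Ror1, a receptor of Wnt5a, spanned 3.54 CPM (library 7) to 26.5 CPM (library 2) and was above the other 6 in libraries 2, 5 and 8. Of the R-spondins, which amplify WNT signals, and their partners, 4 of 6 were called. Rspo3 had the widest range of all the pathway genes measured, 2.35 CPM (library 9) to 48.3 CPM (library 2), and Rnf43, an E3 ligase gene that removes Frizzled receptors, spanned 0.427 CPM (library 9) to 3.44 CPM (library 1).

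Cytoplasmic relay genes had the smallest median range of the role lists, 0.38 on the log2 scale. Apart from Axin2, 2 of 16 (12.5%) were called, against 27.7% of all genes tested. The 2 were Amer1, a scaffold of the beta-catenin destruction complex (20.6 to 49.985 CPM), and Apc2, a homologue of Apc (1.40 to 3.40 CPM). Of the nuclear factors other than Tcf7l2 and Lef1, 4 of 11 (36.4%) were called, against the same 27.7%. Among them Tle2, a Groucho-type co-repressor gene, spanned 11.4 CPM (library 9) to 67.4 CPM (library 2). Libraries 2, 5 and 8 lay above the other 6 for 6 of these 11 genes and below for none. Over all 62 genes they lay above for 21 (33.9%, against 21.3% of all genes) and below for 8 (12.9%, against 18.3%). Library 2 held the highest value of 20 of the 62 genes (32.3%, against 16.2% of all genes) and library 9 the lowest of 24 (38.7%, against 20.8%).

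**Figure D4:**
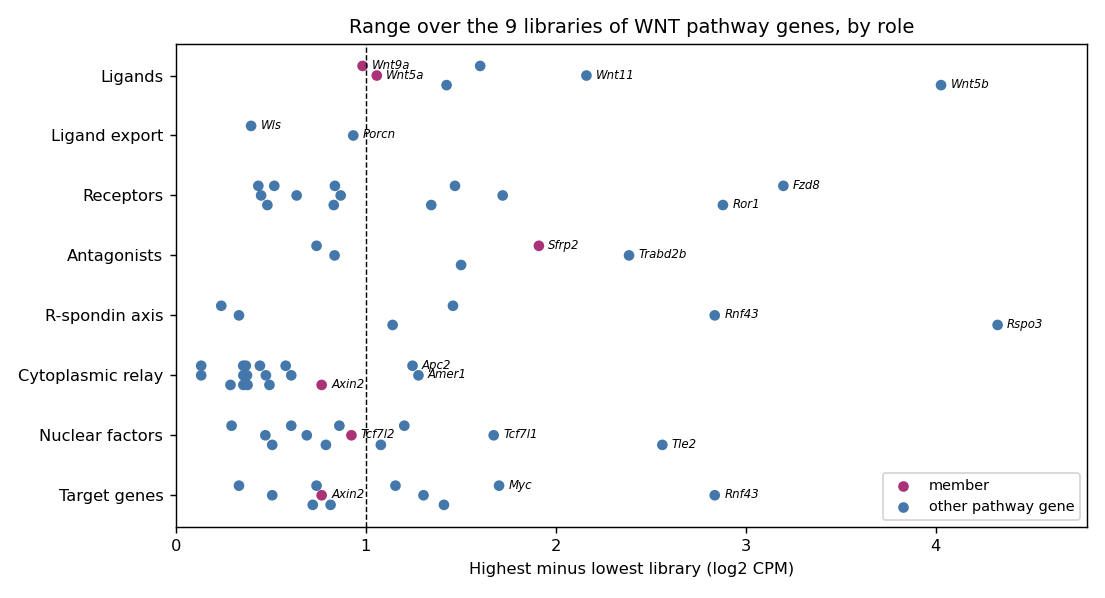
Difference between the highest and the lowest library (log2 CPM, x axis) of each measured WNT pathway gene, 1 dot per gene and row by role (Axin2, Tcf7, Notum, Rnf43 and Znrf3 stand in 2 rows), with members in red and a dashed line at the 2-fold mark. Rspo3 and Wnt5b lie farthest right, and most cytoplasmic relay genes lie below 1.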

How the data were processed

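The deposited table holds unnormalised expected counts of 9 libraries, as whole numbers. Per the submitters' processing notes, RSEM 1.3.3 and STAR 2.7.8a were used on the build GRCm38, with cutadapt 2.3 and FastQC 0.11.8. No source used here names the annotation release or the strand setting. RSEM splits reads shared between genes, and without strand a gene cannot be told from an antisense partner; the antisense genes listed over Sfrp2, Wnt5a and Axin2 held at most 10 counts in a library. All 9 columns matched a sample title. The 5 rows without a gene ID held 0 counts.

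Counts were scaled with TMM factors (edgeR 4.0.16, R 4.3.3), and log2 CPM used a prior count of 2. Genes with a mean of at least 1 CPM (12328) were tested with a chi-square test of dispersion (SciPy 1.17.1), Benjamini-Hochberg adjusted. It was also run on simulated counts with Poisson noise only. That run cannot show how the test behaves where libraries vary more than that. With no group known there was no coefficient for a quasi-likelihood test, no replicate spread and no comparison of conditions; the p-values measure only variation between these libraries, which may be technical. Intervals are exact (Poisson, or conditional binomial for a ratio) and cover counting error only. Coordinates and exon lengths are from GENCODE M21 on GRCm38, promoter sequences from RefSeq. The exon length of a gene joins the exons of all its annotated transcripts, which bears on every level and share per kilobase. The members, lists and tests were chosen with earlier results of these data known. Named genes are the 10 members, the 3 nearest profiles of each called member, the 2 genes of widest range in each pathway list, Mki67 and the markers. Other genes were named after their values were seen (Igfbp4, Wnt7b, Tcf7, Znrf3, Notum and, in the closing section, some further target genes). Alternatives were other scalings, filters and prior counts, an inner range and leaving out each library.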

Additional observations from a re-analysis of the deposited data

How the results depend on the processing

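Sfrp2 was called in every alternative run. The count of called members, 2 of 5, was 3 of 5 with totals alone (Wnt9a added, 27.7% of all genes called). It was 3 of 6 with a minimum count in every library (Dkk3 added, 28.4% of all genes). With no filter beyond 15 counts in total it was 4 of 7 (Dkk3 and Sfrp1 added, 32.4% of all genes). By the range from the second highest to the second lowest library it was 1 of 5, where 14.7% of all genes were called. With 1 library left out it lay between 1 and 2 of 5 (24.9% to 27.3% of all genes). The 25 of 62 called pathway genes became 16 by that inner range and 23 to 25 with 1 library left out. The other scalings and the other prior count gave 25 of 62. The minimum count gave 26 of 63 and no filter beyond 15 counts gave 32 of 72. RLE size factors and a prior count of 0.5 moved no call of a member. Libraries 2, 5 and 8 stayed above the other 6 for Sfrp2, Wnt9a and Tcf7l2 under both other scalings (RLE and totals), as did the positions of Wnt5a and Axin2. Depth limits Dkk1, Dkk2, Lef1 and Sfrp1, which rest on 0 to 29 counts a library. No paired analysis was possible because no library has a group.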

Other observations

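Textbook beta-catenin targets other than Axin2 took several arrangements over the libraries. Of 15 listed targets that are not members, 10 reached a mean of 1 CPM and 5 of these were called, where 27.7% of all genes tested were. Libraries 2, 5 and 8 lay above the other 6 for 2 of the 10 (21.3% of all genes tested) and below for 2 (18.3% of all genes tested). Myc, a growth-promoting transcription factor gene, spanned 63.1 CPM (library 2) to 205 CPM (library 4) and had libraries 2, 5 and 8 all below the other 6. Ccnd1, the cyclin D1 gene, had the same libraries all above the other 6, spanning 91.1 CPM (library 3) to 242 CPM (library 5). Apcdd1, a membrane inhibitor of WNT signals, lay between 95.4 and 236 CPM, and Notum, a secreted enzyme that inactivates WNT ligands, between 8.72 and 14.6 CPM. Nkd1 and Sp5 had 0 counts in all 9 libraries, and Lgr5 at most 5 counts. Ccnd1, Apcdd1, Notum, Nkd1, Sp5 and Lgr5 were named after their values were seen.

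For the 7 members with at least 15 counts in total, the gap of each outermost library to its neighbour was set against the range. These gaps cannot show whether a library stood alone, because the labels list several kinds of sample and libraries high together hide each other's gap. The largest gap of an outermost library to its neighbour was that of library 8 for Wnt9a, 0.347 of the whole log2 range, followed by library 2 for Dkk3 (0.292) and library 1 for Axin2 (0.282).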
